A study of Mus musculus with 4 samples.

Results

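The 9 genes described here carry salt and water across the surface of the colon: the anion exchanger gene Slc26a3, the sodium-hydrogen exchanger gene Slc9a3, the 3 subunit genes of the epithelial sodium channel (Scnn1a, Scnn1b and Scnn1g), the chloride channel gene Cftr, the sodium-potassium-chloride cotransporter gene Slc12a2, the non-gastric proton-potassium pump gene Atp12a and the water channel gene Aqp8. They were chosen by symbol, and each is represented by its listed transcript with the highest mean over the 4 libraries. All 9 were found among the 25796 genes listed, and all 9 passed the filter on low values. RNA came from epithelial cells released from mouse colon, and the libraries are the unenriched inputs of an experiment on N6-methyladenosine, a base modification of mRNA that the protein made from Ythdf1 binds. The groups were 2 libraries labelled Ythdf1 KO and 2 labelled WT. The labels give no strain, age, sex or treatment for either group, do not say which part of Ythdf1 was altered or in which cells, and leave unstated whether libraries sharing a label are from different mice. P-values therefore measure the spread between these libraries, which may be technical.

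Surface cells of the colon take up sodium chloride through paired exchangers in the apical membrane, Slc9a3 for sodium against protons and Slc26a3 for chloride against bicarbonate, and water follows the salt. In the distal colon, sodium also enters through the epithelial sodium channel, whose abundance aldosterone controls, and potassium is recovered by the pump encoded by Atp12a. Secretion runs the other way: Slc12a2 loads chloride into the cell from the blood side and Cftr lets it out into the lumen. The comparison of the labelled groups asks whether the RNA levels of this machinery differed in epithelium labelled as lacking Ythdf1.

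Summed over 1 transcript per gene, the most abundant, depth was 21686140 to 30951138 reads a library. These reads were inferred, with the lowest value above 0 in each library taken as 1 read. The 10 epithelial markers checked were present in every library, with summed normalised read counts of 329277 and 397826 in the KO-labelled libraries and 319352 and 358307 in WT. Leukocyte markers, of which 9 of 10 were listed, summed to 967 and 585 in the KO-labelled libraries and 1555 and 1160 in WT, with Adgre1 and Lyz2 among those at 0 in at least 1 library. The 9 listed of 10 markers of stroma, vessel and nerve summed to 1594 and 1015 in the KO-labelled libraries and to 1318 and 3261 in WT. Ythdf1 itself stood at 1752 and 1737 in the KO-labelled libraries, against 1088 and 775 in WT, and so was higher where a knockout is labelled. Its limma-trend adjusted p was 0.759, and the authors' deposited table gave q = 0.0145. As the altered part of the gene is not given, the level over the whole transcript neither checks nor refutes the labels. Every direction given here follows the labels alone. KO 1 and KO 2 in what follows are the libraries labelled Ythdf1 KO, called KO-labelled for short.

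Of the 4 stretches of reference sequence printed here, that of Slc26a3 differs from the others in its share of G or C. The 4 stretches cover the exchanger pair of surface cells and the neighbouring genes of the channel's beta and gamma subunits. Each is the 250 bases before the start that the RefSeq promoter table on GRCm38.p6 uses, where 6 of the 9 genes were matched by symbol. For Slc26a3, Scnn1b and Scnn1g that start is the start of the transcript measured here. For Slc9a3 it is not: the stretch lies inside the span of the measured XM_006517022.3, which starts at 74121120, and before the curated transcript, which starts at 74121515. Capitals mark every match, on either strand, to 4 motifs: GGGCGG (the GC box bound by Sp1 proteins), AGAACA (a half-site of steroid hormone receptors), TTTAT (a core shared by CDX and posterior HOX proteins) and the palindromic HNF1 element, the last chosen after the sequences were seen. No matches overlapped in these 4 stretches.
Slc26a3 (chr12:31437969-31438218, + strand): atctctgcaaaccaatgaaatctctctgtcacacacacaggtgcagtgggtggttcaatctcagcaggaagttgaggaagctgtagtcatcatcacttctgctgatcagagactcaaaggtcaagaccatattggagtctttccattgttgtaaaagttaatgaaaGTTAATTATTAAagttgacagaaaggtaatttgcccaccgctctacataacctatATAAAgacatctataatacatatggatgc
Slc9a3 (chr13:74121163-74121412, + strand): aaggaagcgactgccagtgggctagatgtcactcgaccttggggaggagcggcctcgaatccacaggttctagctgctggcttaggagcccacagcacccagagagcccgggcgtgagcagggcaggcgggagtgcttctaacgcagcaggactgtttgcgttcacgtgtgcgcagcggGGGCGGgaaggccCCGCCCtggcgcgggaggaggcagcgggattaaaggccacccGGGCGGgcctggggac
Scnn1b (chr7:121864788-121865037, + strand): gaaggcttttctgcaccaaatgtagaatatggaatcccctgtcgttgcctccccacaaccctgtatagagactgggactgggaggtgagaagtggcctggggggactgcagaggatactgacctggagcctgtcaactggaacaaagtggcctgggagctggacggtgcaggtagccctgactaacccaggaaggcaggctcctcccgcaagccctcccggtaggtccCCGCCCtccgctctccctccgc
Scnn1g (chr7:121734229-121734478, + strand): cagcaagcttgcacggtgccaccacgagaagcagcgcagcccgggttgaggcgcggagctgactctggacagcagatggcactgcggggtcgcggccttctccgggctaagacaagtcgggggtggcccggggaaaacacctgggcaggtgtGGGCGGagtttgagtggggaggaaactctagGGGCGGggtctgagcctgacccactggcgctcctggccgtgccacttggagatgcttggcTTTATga
The Slc26a3 stretch was 38.8% G or C and held the HNF1 element and a TTTAT match on the opposite strand, and no GC box. That TTTAT match, at bases -29 to -25 from the start, lies within the longer run TATATAAAG. Its letters alone do not make it a CDX or HOX core. In Slc9a3 the share was 67.6%, with 3 GC boxes. For Scnn1b and Scnn1g it was 60.8% and 65.2%, with 1 and 2 GC boxes, and Scnn1g also held a TTTAT core just before its start. The steroid receptor half-site was found in none of these windows. Over all 32851 windows of that length the median share of G or C was 52.4%, and 32.7% held a GC box, 37.3% a TTTAT core, 16.1% the half-site and 0.0609% the HNF1 element. A match is a run of letters and not a site shown to be bound.

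None of the 9 transporters passed the test between the labelled groups. In limma-trend on log2(value + 1), with Benjamini-Hochberg adjustment over all 23116 genes tested, 0 genes passed an adjusted p of 0.05, a background of 0.0%, and the smallest adjusted p was 0.759. Before adjustment, 1257 genes (5.44%) had p under 0.05, among them 2 of the 9, Slc9a3 and Slc12a2. Both libraries labelled Ythdf1 KO lay above both WT libraries for Scnn1a and Slc12a2, 2 of 9 or 22.2%, where 14.3% of all genes tested did so. Both lay below for Slc9a3 and Cftr, again 22.2%, where the background was 21.4%. Neither share of so small a list stands out from its background. The median log2 difference of the 9 was 0.10, beside -0.09 over all genes tested. That background depends on abundance: over the 7431 genes with a mean of at least 500, which leave out Scnn1b and Scnn1g, the median was 0.07. In the authors' deposited table, 0 of the 9 had q under 0.05 in either direction on their most abundant transcript. On the same basis 1.24% of all genes were called higher and 3.23% lower. A less abundant transcript of Slc9a3, XM_006517021.3, was called lower there (q = 0.0367).

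**Figure D1:**
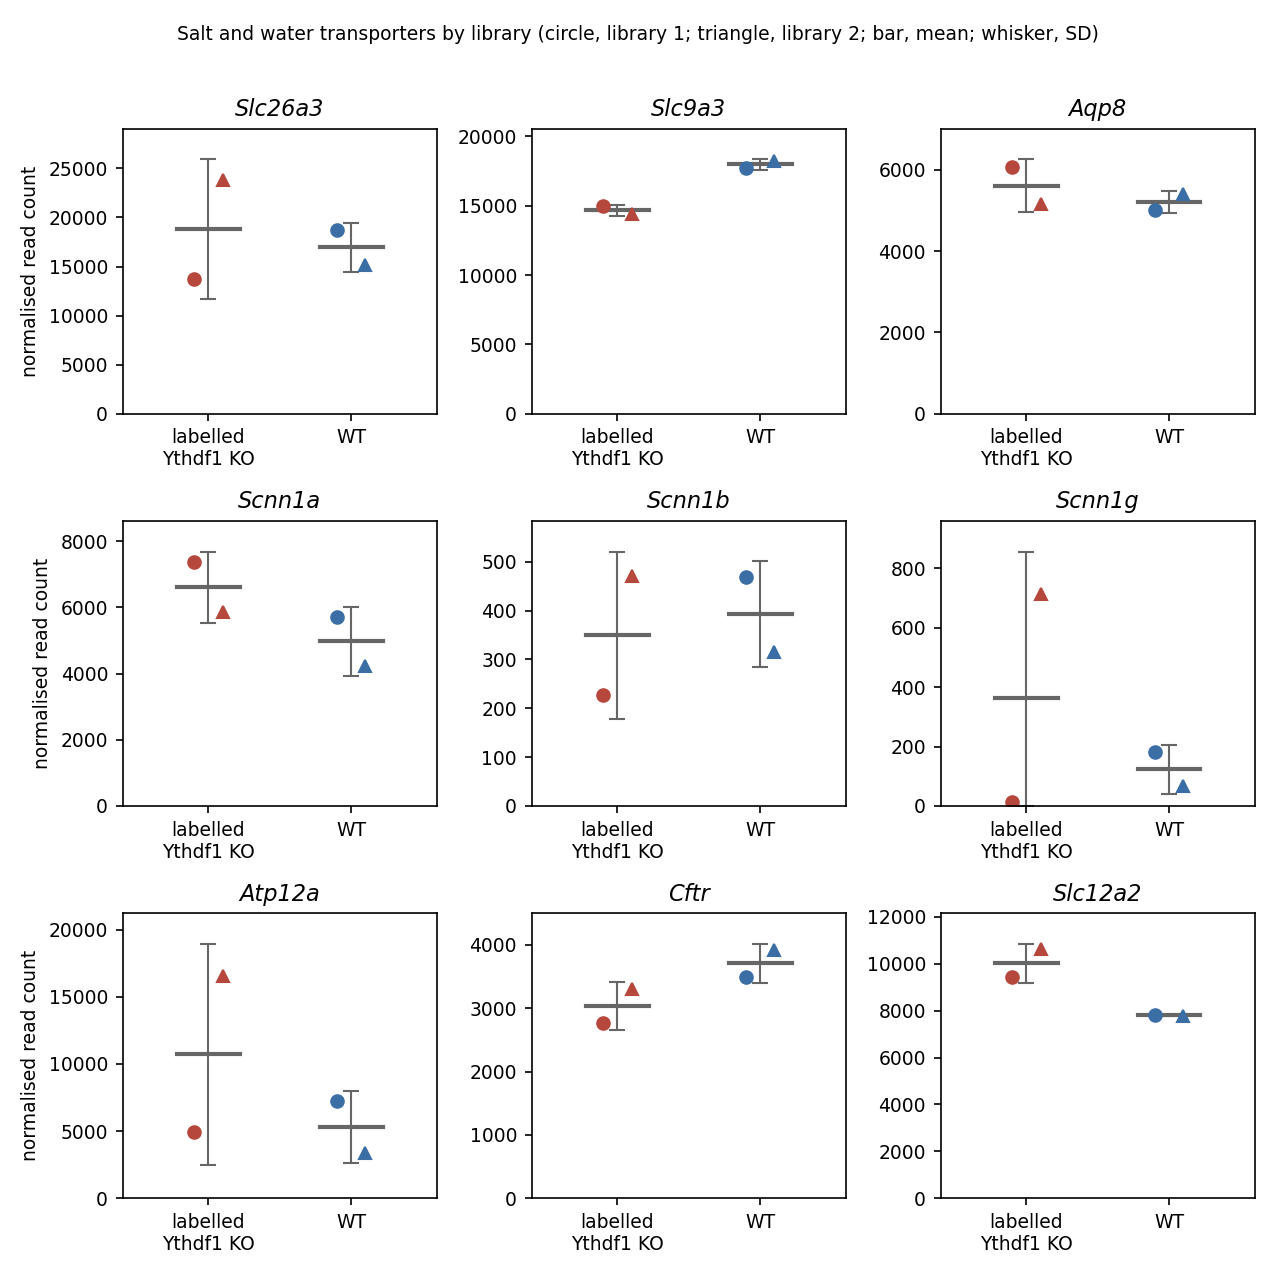
Normalised read count (vertical axis, from 0) of each of the 9 transporters in the KO-labelled libraries (red) and WT (blue); circles are library 1, triangles library 2, bars the means and whiskers the SD of 2 libraries, drawn no lower than 0. The labelled groups do not overlap for Slc9a3, Scnn1a, Cftr and Slc12a2, and KO 2 is far above KO 1 for Atp12a and Scnn1g.

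Slc26a3 encodes the apical exchanger that takes up chloride in return for bicarbonate, and loss of the human protein causes congenital chloride diarrhoea. Its transcript NM_021353.3 (gene ID 13487, mm10 chromosome 12, 31438219 to 31473920, + strand) stood at 13732 in KO 1 and 23838 in KO 2, against 18713 in WT 1 and 15165 in WT 2. The libraries labelled Ythdf1 KO were the lowest and the highest of the 4, so they enclosed both WT values. Means were 18785 ± 7146 in the KO-labelled libraries and 16939 ± 2508 in WT (SD, n = 2 each). The log2 difference was 0.10 ± 0.27 (SE, limma-trend adjusted p = 0.978), and its sign turned when KO 2 (-0.29) or WT 2 (-0.05) was left out. All 3 listed transcripts of the gene had KO 1 lowest and KO 2 highest.

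Slc9a3 encodes NHE3, the sodium-hydrogen exchanger that works beside Slc26a3. Its most abundant transcript, the predicted XM_006517022.3 (gene ID 105243, mm10 chromosome 13, 74121120 to 74169442, + strand), stood at 14958 in KO 1 and 14395 in KO 2, against 17720 in WT 1 and 18242 in WT 2. Libraries of a group lay close together here, and both of those labelled Ythdf1 KO were below both WT libraries. Means were 14677 ± 398 in the KO-labelled libraries and 17981 ± 369 in WT (SD, n = 2 each), a ratio of 0.816. The log2 difference was -0.29 ± 0.11 (SE) with a limma-trend adjusted p = 0.759. The authors' deposited table gave this transcript a log2 fold change of -0.29 with q = 0.0509.

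The 3 listed transcripts of Slc9a3 did not show the same difference. XM_006517021.3, which starts farther upstream and ends at the same base, stood at 13061 in KO 1 and 12750 in KO 2, against 15925 in WT 1 and 15992 in WT 2, and the authors' deposited table called it lower with q = 0.0367. The curated transcript NM_001081060.1 (74121515 to 74166064) stood at 7293 in KO 1 and 7174 in KO 2, against 6646 in WT 1 and 8007 in WT 2. Here the values labelled Ythdf1 KO lay between the WT values, and the log2 difference was -0.01 (limma-trend on each transcript, adjusted p = 0.998). The span of the curated transcript lies inside that of XM_006517022.3, which ends 3378 bases farther downstream and starts 395 bases farther upstream. The ratio of group means was 0.816 for XM_006517022.3, 0.809 for XM_006517021.3 and 0.987 for the curated transcript. Span does not order the values, since XM_006517021.3 has the longest span and a lower value than XM_006517022.3. The files do not give exons, so which reads set the transcripts apart was not analysed here. The range covered by the listed transcripts also overlaps Gm41003, a noncoding gene on the same strand. It was listed at 476 and 387 in KO 1 and KO 2 and 159 and 477 in WT 1 and WT 2.

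**Figure D2:**
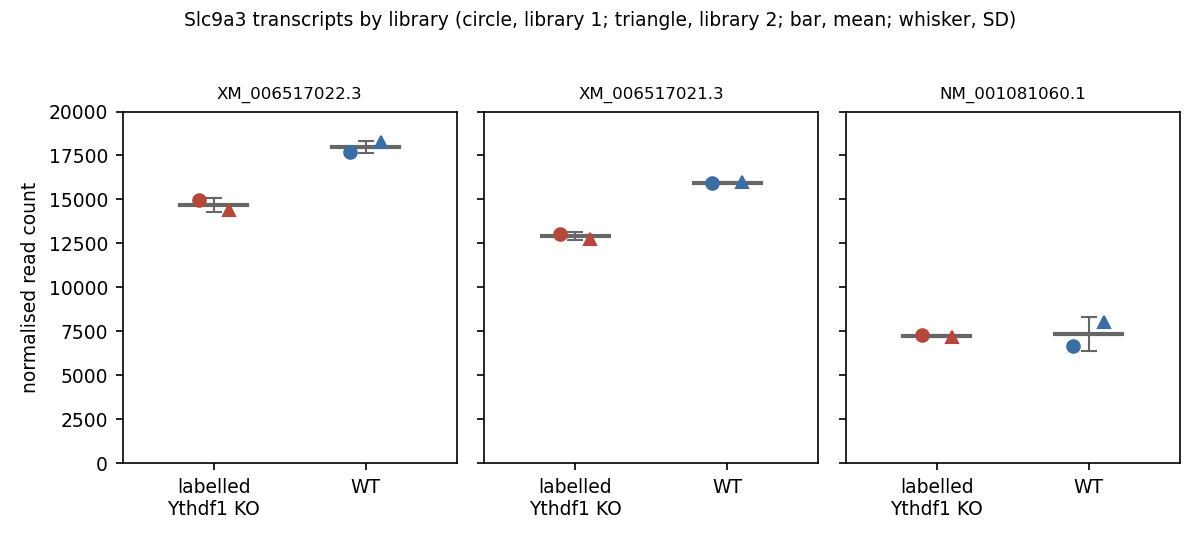
Normalised read count (vertical axis, from 0) of the 3 listed Slc9a3 transcripts in the KO-labelled libraries (red) and WT (blue); circles are library 1, triangles library 2, bars means and whiskers the SD of 2 libraries. The groups are apart for both XM transcripts and overlap for the curated NM transcript.

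Markers of surface colonocytes, the cells in which Slc9a3 works, did not move one way. The 6 markers summed to 209034 in KO 1 and 176155 in KO 2, against 252120 in WT 1 and 269135 in WT 2, with none at 0. Car1 and Ceacam1 carry most of that sum, and the median log2 difference of the 6 was 0.03. Car1, a carbonic anhydrase, stood at 73552 in KO 1 and 42374 in KO 2, against 102727 in WT 1 and 116128 in WT 2. Of the 6, 3 (Krt20, Car1 and Ceacam1) lay below both WT libraries in both KO-labelled ones (50%, background 21.4%), 2 (Car4 and Ceacam20) lay above (33.3%, background 14.3%), and Slc20a1 overlapped. In bulk RNA, fewer cells of a type and less RNA per cell cannot be told apart, and the part of these markers in the Slc9a3 values was not tested.

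Epithelial sodium channels are built from an alpha, a beta and a gamma subunit, and the 3 genes behaved differently from one another across the libraries. Scnn1a, the alpha subunit without which the channel does not conduct, is on mm10 chromosome 6 (NM_011324.2, gene ID 20276, 125321340 to 125344943, + strand). It stood at 7375 in KO 1 and 5855 in KO 2, against 5700 in WT 1 and 4241 in WT 2. The groups did not overlap, although KO 2 and WT 1 were close. Means were 6615 ± 1075 in the KO-labelled libraries and 4971 ± 1031 in WT (SD, n = 2 each), a ratio of 1.33, and the log2 difference was 0.42 ± 0.21 (SE, limma-trend adjusted p = 0.759). In its second listed transcript, XM_017321471.1, the groups overlapped, at 5383 in KO 1 and 4368 in KO 2 against 4409 in WT 1 and 3050 in WT 2.

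Scnn1b, the beta subunit, had values that overlapped fully. NM_001272023.1 (gene ID 20277, mm10 chromosome 7, 121865038 to 121918728, + strand) stood at 228 in KO 1 and 471 in KO 2, against 469 in WT 1 and 316 in WT 2. KO 1 was the lowest library, and KO 2 was level with WT 1 on this transcript. On the other listed transcripts KO 2 was below WT 1, at 400 against 487 (NR_073548.1) and 367 against 468 (NM_011325.2). The groups overlapped there too. The log2 difference was -0.23 ± 0.55 (SE, limma-trend adjusted p = 0.970), and its sign turned when KO 1 (0.29) or WT 1 (0.05) was left out.

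Scnn1g, the gamma subunit, had the widest spread of the 9 genes. It lies 96556 bases before Scnn1b on the same strand (NM_011326.3, gene ID 20278, mm10 chromosome 7, 121734479 to 121768482). Its normalised read counts were 13.6 in KO 1 and 712 in KO 2, against 181 in WT 1 and 65.6 in WT 2. Divided by the lowest value above 0 in each library, taken as 1 read, they came to 14, 861, 161 and 65. KO 2 was 52.5 times KO 1, the WT libraries differed 2.77-fold, and the WT values lay between those labelled Ythdf1 KO. The ratio of group means was 2.94, while the log2 difference, a difference of mean logs, was -0.11 ± 1.85 (SE, limma-trend adjusted p = 1.000). The opposite directions come from averaging before or after taking logs. Without WT 1 the log2 difference was 0.61. Leaving out KO 1 gave a log2 difference of 2.69 (adjusted p = 0.350), and leaving out KO 2 gave -2.92 (adjusted p = 0.651). Scnn1g overlaps the antisense noncoding gene Gm36848, which was listed at 0 in both libraries labelled Ythdf1 KO and in WT 1 and at 61.6 in WT 2.

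Atp12a, whose pump exchanges luminal potassium for protons in the distal colon, was highest in KO 2 and next highest in WT 1, as Scnn1g was. NM_138652.2 (gene ID 192113, mm10 chromosome 14, 56365068 to 56388551, + strand) stood at 4892 in KO 1 and 16532 in KO 2, against 7215 in WT 1 and 3388 in WT 2. KO 2 was the highest and KO 1 lay between the WT libraries. Means were 10712 ± 8231 in the KO-labelled libraries and 5302 ± 2706 in WT (SD, n = 2 each), a ratio of 2.02. The log2 difference was 0.86 ± 0.61 (SE, limma-trend adjusted p = 0.815). It rests on KO 2: without KO 1 the log2 difference was 1.74 (adjusted p = 0.0350), a fit that assumes the lone KO 2 library varies as the WT libraries do, and without KO 2 it was -0.02 (adjusted p = 0.991).

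**Figure D3:**
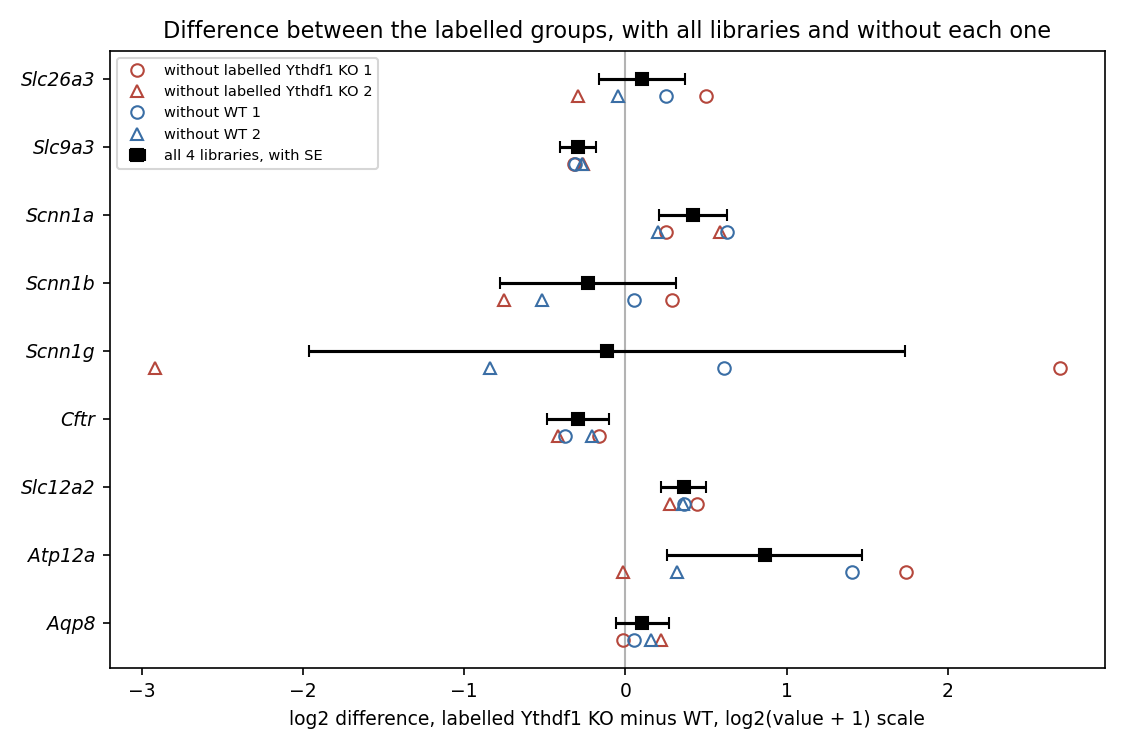
Log2 difference, libraries labelled Ythdf1 KO minus WT on the log2(value + 1) scale (horizontal axis), for the 9 transporters; black squares use all 4 libraries, with the SE as whisker, and open marks leave out 1 library each. The marks of Slc9a3, Cftr, Scnn1a and Slc12a2 stay on one side of 0, while those of Scnn1g spread between -2.92 and 2.69.

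The library KO 2 stood apart in Hox genes of the distal colon, and it was also the highest library for Atp12a and Scnn1g. Where a gene's mean was 100 or more, KO 2 was at least 2-fold above each of the other 3 libraries for 1.29% of all genes, for 2 of the 9 transporters (Atp12a and Scnn1g) and for 2 of 73 other transport genes (Best2 and Fxyd4). It was so for 5 of the 6 Hox genes that mark the distal colon and rectum. Hoxb13 stood at 2332 in KO 1 and 7052 in KO 2, against 1957 in WT 1 and 2725 in WT 2. Hoxa13 stood at 621 in KO 1 and 2084 in KO 2, against 562 in WT 1 and 518 in WT 2. Summed over the 6, the Hox genes came to 4247 in KO 1 and 12612 in KO 2, against 3731 in WT 1 and 4123 in WT 2, with Hoxd12 at 0 in WT 2. The high value of KO 2 was thus not shared by KO 1, and the part of colon region in the Atp12a and Scnn1g values was not tested. The other libraries also had genes of this kind: KO 1 stood alone above for 1.37% of all genes, WT 1 for 2.59% and WT 2 for 1.51%, and none of these was among the 9.

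**Figure D4:**
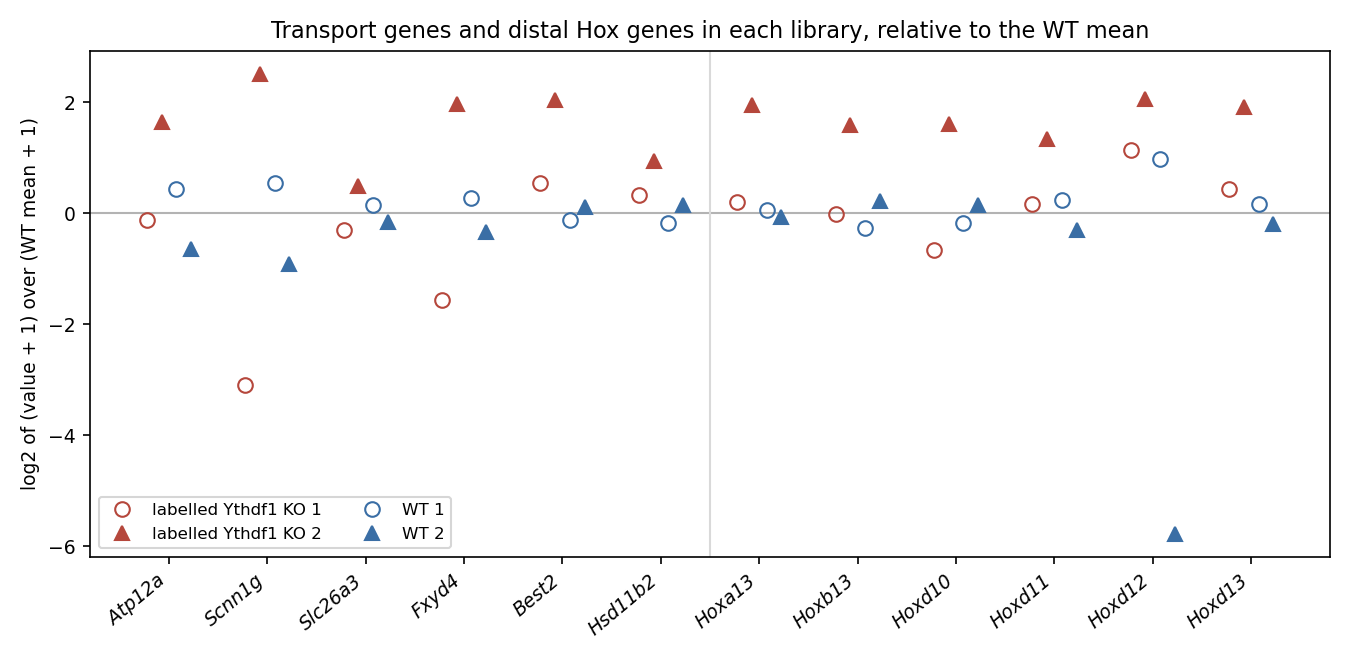
Log2 of (value + 1) over (WT mean + 1) in each library (vertical axis) for Atp12a, Scnn1g, Slc26a3, Fxyd4, Best2 and Hsd11b2, left of the grey line, and the 6 Hox genes of the distal colon, right of it; red is labelled Ythdf1 KO, blue is WT, circles are library 1 and triangles library 2. The 6 transport genes were picked after their values were seen, for a high KO 2 (filled red triangles), so its place among them is no result; for 5 of the 6 Hox genes KO 2 is at least 2-fold above each other library.

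Aqp8, a water channel of surface colonocytes, differed little between libraries. NM_007474.2 (gene ID 11833, mm10 chromosome 7, 123462294 to 123468003, + strand) stood at 6071 in KO 1 and 5152 in KO 2, against 5017 in WT 1 and 5396 in WT 2. The values overlapped, with KO 1 the highest. Means were 5611 ± 650 in the KO-labelled libraries and 5207 ± 268 in WT (SD, n = 2 each), and the log2 difference was 0.10 ± 0.17 (SE, limma-trend adjusted p = 0.916).

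The secretory pair differed in direction, with Cftr lower and Slc12a2 higher in both libraries labelled Ythdf1 KO, and neither passed the test. Cftr, the cyclic AMP-gated chloride channel that is mutated in cystic fibrosis, is represented by XM_006504977.1 (gene ID 12638, mm10 chromosome 6, 18170262 to 18322774, + strand). It stood at 2767 in KO 1 and 3309 in KO 2, against 3491 in WT 1 and 3928 in WT 2. The groups did not overlap, and the gap between KO 2 and WT 1 was smaller than the spread within either group. Means were 3038 ± 383 in the KO-labelled libraries and 3710 ± 309 in WT (SD, n = 2 each), a ratio of 0.819, with a log2 difference of -0.29 ± 0.19 (SE, limma-trend adjusted p = 0.804). All 5 listed transcripts of Cftr had both libraries labelled Ythdf1 KO below both WT libraries, which is not independent evidence since they share reads.

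Slc12a2 encodes NKCC1, the basolateral cotransporter that supplies chloride for secretion and is most abundant in crypt cells. Its transcript XR_001782351.1 (gene ID 20496) stood at 9438 in KO 1 and 10613 in KO 2, against 7800 in WT 1 and 7791 in WT 2. The WT libraries were almost level, and both of those labelled Ythdf1 KO were above them. Means were 10025 ± 831 in the KO-labelled libraries and 7796 ± 6.15 in WT (SD, n = 2 each), a ratio of 1.29. The log2 difference was 0.36 ± 0.14 (SE, limma-trend adjusted p = 0.759), and the authors' deposited table gave q = 0.0554. It lay between 0.28 and 0.45 when any 1 library was left out. Each of the 4 listed transcripts showed the same order, again on shared reads.

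Markers of crypt base and cycling cells were higher in sum in the KO-labelled libraries, though not every marker lay above both WT libraries. The 6 markers summed to 20986 in KO 1 and 23109 in KO 2, against 15138 in WT 1 and 16838 in WT 2, with none at 0, and Mki67 and Sox9 make up most of that sum. Of the 6, 3 (Lgr5, Sox9 and Mki67) lay above both WT libraries (50%, background 14.3%) and 0 below, while Axin2, Top2a and Ascl2 overlapped. Ascl2 stood at 46.5 in KO 1 and 276 in KO 2, against 278 in WT 1 and 121 in WT 2. The part of these markers in the Slc12a2 values was not tested.

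The rest of the transport machinery was read from 6 lists of 89 genes, of which 88 were listed and 85 tested. None passed the test. Both libraries labelled Ythdf1 KO lay above both WT libraries for 16 of the 85 (18.8%) and below for 21 (24.7%), against the backgrounds of 14.3% and 21.4% over all genes. Their median log2 difference was -0.05. In the authors' deposited table, of the 88 genes, 3 were called higher (3.41%, background 1.24%) and 1 lower (1.14%, background 3.23%).

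**Figure D5:**
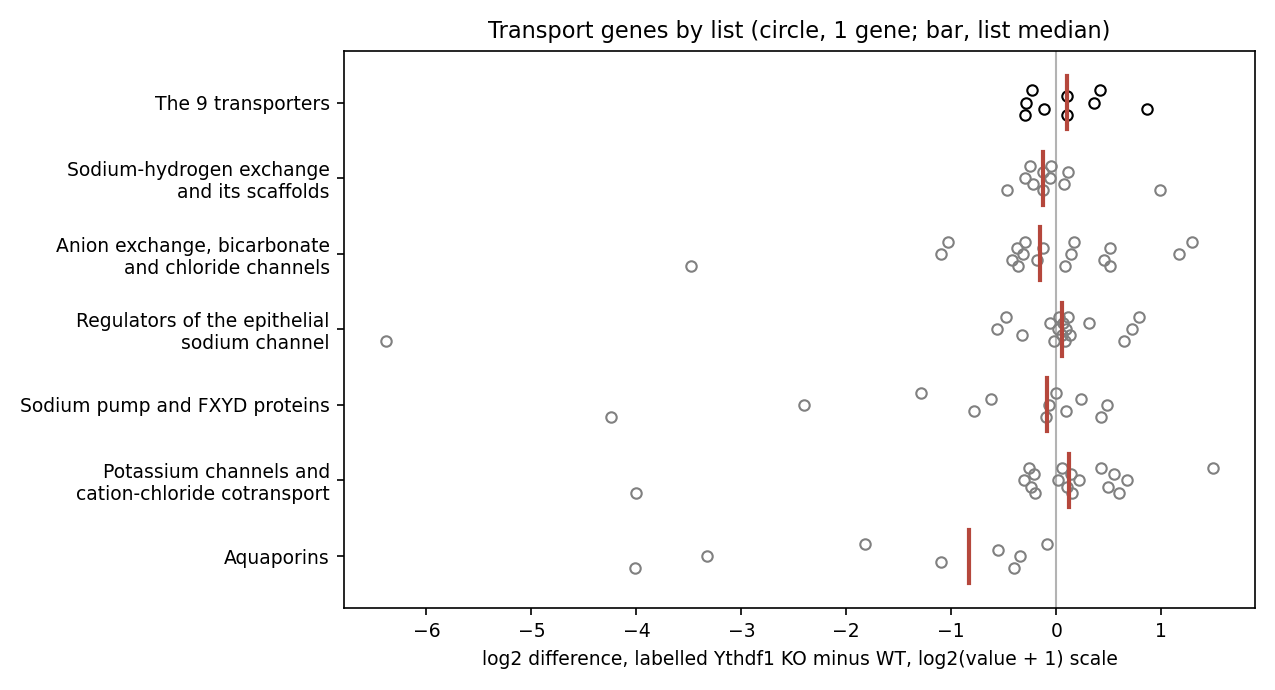
Log2 difference, libraries labelled Ythdf1 KO minus WT on the log2(value + 1) scale (horizontal axis), for the 9 transporters and the tested genes of 6 lists of other transport genes; each circle is 1 gene and the red bar is the list median. Medians of all but the aquaporins lie between -0.16 and 0.12, and the far left points are genes with low values.

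Sodium-hydrogen exchange and its scaffold proteins had a median log2 difference of -0.12 over 11 genes. Of these, 1 lay above (9.09%, background 14.3%) and 2 below (18.2%, background 21.4%). Slc9a2, the NHE2 exchanger, stood at 12207 and 11972 in the KO-labelled libraries, against 14196 and 15458 in WT. Its ratio was 0.815 (log2 difference -0.29 ± 0.12 SE, limma-trend adjusted p = 0.759). For Slc9a3 the ratio was 0.816 on its most abundant transcript and 0.987 on its curated one. Slc9a3r1, the scaffold that holds Slc9a3 and Cftr at the apical membrane, stood at 12564 and 11118, against 13863 and 11934 in WT. Ezr, which links that scaffold to actin, stood at 23951 and 28142 in the KO-labelled libraries and 25426 and 22709 in WT. Chp1, a calcium-binding partner of the exchangers, stood at 7566 and 6151, against 7519 and 8376 in WT. Of these 4, the groups were apart for Slc9a2 alone.

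Anion exchangers, bicarbonate transporters and chloride channels had a median of -0.16 over 18 genes. Of these, 4 lay above (22.2%, background 14.3%) and 5 below (27.8%, background 21.4%). Slc4a4, the basolateral sodium bicarbonate cotransporter, stood at 6945 and 7358 in the KO-labelled libraries, against 5471 and 4937 in WT, a ratio of 1.37 (log2 difference 0.46 ± 0.15 SE, limma-trend adjusted p = 0.759). The authors' deposited table called it higher with q = 0.0172. Best2, a bicarbonate channel of colonic goblet cells, stood at 762 in KO 1 and 2147 in KO 2, against 478 and 565 in WT. That gene was also called in the authors' deposited table (q = 0.0356). Its ratio was 2.79 (limma-trend adjusted p = 0.759), and the log2 difference was 0.55 without KO 2 and 2.04 without KO 1. Clcn2, a basolateral chloride channel, stood at 8341 and 8600 in the KO-labelled libraries, against 9901 and 11987 in WT. Values of Slc26a2, a sulphate transporter, were 15971 and 24301, against 19807 and 15499 in WT, with KO 2 highest as in Slc26a3. For Slc4a2, an anion exchanger, and Clca1, a secreted goblet cell protein, the groups overlapped. At low values, Slc26a1 stood at 175 and 309 in the KO-labelled libraries, against 452 and 550 in WT, Slc26a4 at 0.969 and 36.4, against 47.3 and 188, and Slc26a9 at 97.9 and 126, against 62.0 and 38.4.

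Regulators of the sodium channel had a median of 0.06 over 18 genes, with 4 above (22.2%, background 14.3%) and 2 below (11.1%, background 21.4%). Hsd11b2, the enzyme that shields the mineralocorticoid receptor from glucocorticoids, stood at 10374 in KO 1 and 15792 in KO 2, against 7333 and 9141 in WT. The ratio was 1.59, the log2 difference 0.64 ± 0.23 (SE, limma-trend adjusted p = 0.759), and the authors' deposited table called it higher with q = 0.0386. The difference was 0.34 without KO 2. Nr3c2, the mineralocorticoid receptor itself, stood at 9377 and 10733 in the KO-labelled libraries and 9033 and 9901 in WT, and the groups overlapped. St14 and Spint2, a membrane protease and an inhibitor of such proteases, overlapped as well. The other genes without overlap are Sgk1, Spint1 and Kcnj1, which were above, and Sgk2, which was below, all named here after their values were seen. Sgk1, the kinase that aldosterone induces, stood at 5415 and 4846 in the KO-labelled libraries, against 2223 and 3962 in WT (limma-trend adjusted p = 0.759). Sgk2, a related kinase, stood at 1969 and 1723, against 2341 and 2810 in WT (limma-trend adjusted p = 0.759). Sgk3, of the same family, stood at 0 and 4.14 in the KO-labelled libraries, against 240 and 148 in WT, and the authors' deposited table called it lower with q = 0.000555. Its limma-trend adjusted p was 0.759.

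Genes of the sodium pump and its FXYD partners had a median of -0.09 over 12 tested genes. Of these, 1 lay above (8.33%, background 14.3%) and 3 below (25.0%, background 21.4%). Atp1b1, a beta subunit of the pump, stood at 36660 and 41498 in the KO-labelled libraries and 37578 and 35588 in WT, and Atp1b3 at 499 and 693, against 635 and 602. Fxyd4, a corticosteroid-induced modulator of the pump in the distal colon, stood at 110 in KO 1 and 1285 in KO 2, against 393 and 257 in WT, the order seen in Scnn1g. Atp1b2 and Fxyd6 were below both WT libraries at low values, with Atp1b2 at 0 in KO 1 and at 100 in KO 2, against 351 and 102 in WT.

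Potassium channels and cation-chloride cotransporters had a median of 0.12 over 18 tested genes. Of these, 6 lay above (33.3%, background 14.3%) and 6 below (33.3%, background 21.4%). Kcnq1, a basolateral channel of secreting cells, stood at 3747 and 2678 in the KO-labelled libraries and 2889 and 3005 in WT, and Kcnk5 at 2574 and 3727, against 3246 and 2883. Slc12a7, a potassium-chloride cotransporter, stood at 6369 and 5674, against 7507 and 6941 in WT and was lower in both. Kcnj13 stood at 247 and 206 in the KO-labelled libraries, against 119 and 52.5 in WT, and Slc12a4 at 2.91 and 49.6, against 215 and 235.

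Aquaporins other than Aqp8 had a median of -0.83 over 8 tested genes. Of these, 0 lay above (0.0%, background 14.3%) and 3 below (37.5%, background 21.4%). Aqp4, a basolateral water channel, overlapped at 8688 and 9272 in the KO-labelled libraries and 8316 and 10951 in WT, as did Aqp1 at 1767 and 622, against 1152 and 1662. The median was carried by low genes: Aqp6 stood at 4.85 and 3.31, against 89.0 and 71.7 in WT, Aqp7 at 14.5 and 2.48, against 48.5 and 109, and Aqp2 at 103 and 4.14, against 187 and 34.3. Aqp11 stood at 659 and 360 in the KO-labelled libraries, against 713 and 720 in WT.

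Likeness of pattern was measured as the largest gap, over the 4 libraries, between 2 genes' log2(value + 1) after centring each on its own mean, among the 7431 genes whose mean was 500 or more. The nearest gene to Slc26a3 was Ubl5 (largest gap 0.025), to Slc9a3 Plk1 (0.025), to Slc12a2 Shb (0.012), to Aqp8 Parp4 (0.0092), to Cftr Acy1 (0.031), to Scnn1a Slc2a13 (0.022) and to Scnn1b Nsdhl (0.063). With 4 libraries such neighbours are common, and 155 genes came within 0.1 of Aqp8 and 117 of Slc12a2. By contrast no gene came within 0.1 of Atp12a or Scnn1g. The nearest to Atp12a was Egln3 at 0.18. The nearest to Scnn1g was Fxyd4 at 1.21, so these patterns differ in size.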

How the data were processed

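Input RNA of 4 libraries was analysed, 2 labelled Ythdf1 KO and 2 labelled WT. Per the submitters' processing notes, reads were handled with tools that include Bowtie2 2.2.5 and SAMtools 1.3.1, with build mm10. The counting program, its strand setting and the program behind the authors' comparison were not given in the sources used here. The deposited signal is a normalised read count per RefSeq transcript: 100% of values were whole multiples, within 0.001, of a step per library (0.969 in KO 1, 0.827 in KO 2, 1.13 in WT 1 and 1.01 in WT 2). The table lists 87526 transcripts. Isoforms count shared reads again, and no transcript length was used, so levels were not compared between genes. Each transcript also has the authors' p-value, q-value and log2 fold change, per the file headers.

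For each gene the most abundant transcript was kept, genes reaching 1 in 2 or more libraries were tested, and limma 3.58.1 in R 4.3.3 (trend, robust) fitted log2(value + 1) on the genotype label alone. The fit was tested on simulated data. The added 1 understates changes of low genes. Alternatives were the sum of transcripts, other filters, log2(value + 10), quantile normalisation and a replicate block. Further ones were no trend (with the robust option off too), each library left out and the authors' table. From each transport list the text names genes called in the fit or in the authors' table, the 4 with the highest mean and those with no overlap and a ratio of at least 2 or at most 0.5, and a few of these are not reported here. The members and lists were chosen with earlier results of these data known.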

Additional observations from a re-analysis of the deposited data

How the results depend on the processing

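Of the 9 transporters, Slc9a3, Scnn1a, Cftr and Slc12a2 kept the sign of their log2 difference under every alternative run. For Slc9a3 its size depended on the transcript, at -0.01 on the most abundant curated (NM or NR) transcript, an alternative chosen after seeing the data. The count of genes called, 0, was also 0 with summed transcripts, without a filter, at a mean of at least 500, with log2(value + 10), with quantile normalisation and on curated transcripts. It was 632 without a trend, 1152 in the authors' deposited table, and 0 to 36 when 1 library was left out. Outside the 9 transporters, transport genes called numbered 4 in the authors' deposited table and 0 in the fits to all 4 libraries. The cause of the calls in any of these settings was not tested. That count of transport genes does not cover the 9, of which Atp12a had a log2 difference of 1.74 without KO 1, against 0.86 in the main fit.

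Without 1 library, log2 differences spanned -0.29 to 0.50 for Slc26a3, -0.75 to 0.29 for Scnn1b, -2.92 to 2.69 for Scnn1g, -0.015 to 1.74 for Atp12a and -0.014 to 0.22 for Aqp8. Among other named genes whose sign turned, they spanned -0.0047 to 0.23 for Ezr, -0.13 to 0.47 for Slc26a2, -0.39 to 0.13 for Slc4a2, -0.037 to 0.31 for Clca1, -0.012 to 0.18 for Nr3c2, -0.0080 to 0.20 for Spint2, -0.31 to 0.17 for Atp1b3, -1.53 to 2.01 for Fxyd4, -0.14 to 0.35 for Kcnq1, -0.25 to 0.28 for Kcnk5, -1.15 to 0.35 for Aqp1, -3.99 to 0.35 for Aqp2 and -0.29 to 0.11 for Aqp4. Scnn1g was 0.12 with log2(value + 10), 0.48 with quantile normalisation and 1.55 in the authors' deposited table. Quantile normalisation also turned Spint2 (-0.026), Atp1b1 (-0.086) and Kcnk5 (-0.076).

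With the replicate number as a block, 0 genes and 0 transport genes were called and the smallest adjusted p in limma-trend was 0.648. Library 1 minus library 2 in the group labelled Ythdf1 KO and in WT had a correlation of 0.022 across 7431 genes. The labels do not say whether libraries of the same number were paired, and a low correlation over all genes cannot settle it. Neither edgeR nor DESeq2 was run, since the deposited values were handled as normalised values. At a mean of at least 500, Scnn1b and Scnn1g have no value.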
